A study of Mus musculus with 6 samples.

Results

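Messenger RNA of 8 heat shock chaperone genes was measured in single immune cells from mouse liver: Hspa1a, Hspa1b, Hsph1, Dnajb1, Hsp90aa1, Hspa8, Hspe1 and Hspd1. They are 8 of the 32286 genes counted and were chosen with their levels in these libraries known, so their values are given as a description and carry no test. The cells came from 3 groups of livers taken at day 30 after infection. The first had received AAV-sgBaat, an adeno-associated virus with a guide against Baat, the liver enzyme that conjugates bile acids to amino acids. The second had received AAV-sgSCR, the same kind of virus with a control guide, and the third was mock infected. The design text calls all livers tumor-bearing, while the sample title of the mock group calls its liver native. Each group was 1 library made from a pool of 3 tumor samples, and strain, age and the source of the nuclease are not given in the sources used here. Livers were digested with collagenase, and CD45hi CD3+ T cells and, apart from them, the remaining CD45hi cells were collected by sorting, stained with antibody tags and run on droplets. With 1 library per group, no difference between groups has a replicate check, and every interval below is a 95% interval for counting error only.

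The AAV-sgBaat, AAV-sgSCR and mock libraries held 48359443, 62570529 and 32005400 gene UMIs (unique molecular identifiers, 1 per captured mRNA molecule). Barcodes were kept with at least 500 genes, at least 1000 gene UMIs and at most 10% mitochondrial UMIs, which left 7094 AAV-sgBaat, 7332 AAV-sgSCR and 6068 mock barcodes with medians of 3812, 5911 and 4164 UMIs. Between 10 and 25 deposited barcode sequences were shared by each pair of libraries, and each was counted in its own library. Baat itself had 1, 16 and 7 UMIs in the AAV-sgBaat, AAV-sgSCR and mock libraries, so immune cells say nothing about the edit in hepatocytes. Levels are given as CPM, UMIs of a gene per 1000000 gene UMIs summed over the cells named. CPM sets libraries or lineages against each other for 1 gene, not 1 gene against another.

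Heat shock proteins bind unfolded proteins and help them fold or pass them on for degradation. Heat, oxidants and misfolded proteins release heat shock factor 1 from chaperones, and the factor then binds repeated GAA and TTC units in the promoters of its target genes. Hspa1a and Hspa1b, a pair of near-identical neighbours, encode the stress-inducible Hsp70, and are used as markers of the response because unstressed cells hold little of their mRNA. Hsph1 encodes Hsp110, which exchanges the nucleotide of Hsp70, and Dnajb1 encodes an Hsp40, which brings it clients. Hsp90aa1 encodes the inducible cytosolic Hsp90, and Hspa8 the Hsc70 that all cells make. Hspd1 and Hspe1 encode Hsp60 and Hsp10, the chaperonin and its lid that fold proteins in mitochondria.

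The promoters of 4 members are shown, whose exact matches to facing heat shock units differ in number. Whether these matches bear on the levels was not tested. Each line gives the 200 bases before the annotated start, from RefSeq on GRCm38.p6, 5′ to 3′ on the gene's strand, with facing units (GAANNTTC or TTCNNGAA) in capitals. The windows lie at chr17:34972157-34972356 (minus strand) for Hspa1a, chr17:34959239-34959438 (minus strand) for Hspa1b, chr5:149636337-149636536 (minus strand) for Hsph1 and chr1:55087948-55088147 (plus strand) for Hspe1.
Hspa1a: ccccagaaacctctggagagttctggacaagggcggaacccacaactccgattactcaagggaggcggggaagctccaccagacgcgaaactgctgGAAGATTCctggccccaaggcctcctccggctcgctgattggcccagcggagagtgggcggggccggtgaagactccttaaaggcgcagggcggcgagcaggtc
Hspa1b: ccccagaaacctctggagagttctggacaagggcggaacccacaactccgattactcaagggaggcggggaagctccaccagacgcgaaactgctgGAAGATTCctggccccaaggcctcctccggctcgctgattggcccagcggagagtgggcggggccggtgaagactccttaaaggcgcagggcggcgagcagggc
Hsph1: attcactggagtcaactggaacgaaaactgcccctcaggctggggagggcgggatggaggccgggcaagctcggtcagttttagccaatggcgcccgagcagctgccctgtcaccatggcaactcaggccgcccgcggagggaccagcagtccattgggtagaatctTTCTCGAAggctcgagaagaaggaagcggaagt
Hspe1: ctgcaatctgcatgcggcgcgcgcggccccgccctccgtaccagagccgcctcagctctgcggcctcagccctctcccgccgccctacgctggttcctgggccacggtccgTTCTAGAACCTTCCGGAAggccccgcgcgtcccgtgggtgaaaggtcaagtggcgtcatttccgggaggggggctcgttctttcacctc
The Hspa1a and Hspa1b stretches differed at 1 of 200 bases, and their 300-base windows were 98.7% identical. The single match began 104 bases before the start of both genes. In the Hsph1 window shown it began 33 bases before the start. Hspe1 held 3 overlapping matches, starting 89, 84 and 79 bases before the start, and its window shared 285 bases with 1 of the 2 windows of Hspd1, which is transcribed the other way. The other Hspd1 window shared 4 bases with it and held no match. Of the 6 members with a promoter window, 5 held the motif of 2 units in the 250 bases before a start, in any of their windows, against 14.5% of 27025 genes counted in the same way (12.8% of 32851 windows). The motif of 3 units (GAANNTTCNNGAA or TTCNNGAANNTTC) was present for Hspe1 and for 1 of the 2 windows of Hspd1, against 0.514% of genes (0.466% of windows). No match of these letters was found in either Dnajb1 window. Of 22 other heat shock and co-chaperone genes with a window, 7 held the motif of 2 units and 1 that of 3 units. A match is a run of letters and not a measured binding site.

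Cells were assigned to lineages by UMIs of marker panels, such as Cd3d, Cd3e and Cd3g for T cells, and barcodes with panels of several lineages were set apart as mixed. The libraries differed in their makeup. CD8 T cells numbered 855, 1869 and 588 in the AAV-sgBaat, AAV-sgSCR and mock libraries, and monocytes and macrophages 647, 661 and 80. B cells numbered 407, 748 and 2925 in the same order of libraries, and neutrophils 626, 981 and 11. Immature T-like cells, which carried Dntt, Arpp21, Rag1 or Ptcra, numbered 809 in AAV-sgBaat and 93 in AAV-sgSCR livers, and the mock library had none. Mixed barcodes numbered 1996, 1507 and 456. An Mki67 or Top2a UMI, a sign of cycling, was present in T cells at shares of 48.5% (AAV-sgBaat), 22.8% (AAV-sgSCR) and 8.35% (mock). Because of these gaps, results are given within lineages.

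Presence of Hspa8 and of the pair was counted first, which does not test whether a gene is inducible. Barcodes with an Hspa8 UMI made up 91.1% (AAV-sgBaat), 90.6% (AAV-sgSCR) and 94.1% (mock), so it was present in nearly every cell of each library. Hspa1a or Hspa1b had a UMI in 29.5%, 8.24% and 6.67% of the same barcodes. The members therefore hold a pair that most cells lacked at this depth and a gene, Hspa8, that most cells carried.

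The AAV-sgBaat livers held more Hspa1a and Hspa1b mRNA than the AAV-sgSCR and mock livers in nearly every lineage. Summed over all kept barcodes, Hspa1a stood at 113 CPM in AAV-sgBaat, 20.2 in AAV-sgSCR and 14.8 in mock livers. Hspa1b (ENSMUSG00000090877, chr17:34956429-34959238) stood at 72.2, 9.99 and 18.1 CPM in the same libraries, and it lies near Hspa1a (ENSMUSG00000091971, chr17:34969359-34972156). Their sequences are so alike that reads can be split between them wrongly, so their sum is used below where the split does not matter. The sum was 185 CPM (181 to 189) in AAV-sgBaat, 30.2 (28.8 to 31.6) in AAV-sgSCR and 32.9 (30.9 to 34.9) in mock livers. After every cell was thinned to 1000 UMIs, so that depth was equal, the share of barcodes with a UMI of the pair was 13.8% for AAV-sgBaat, against 1.91% for AAV-sgSCR and 2.34% for mock.

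**Figure D1:**
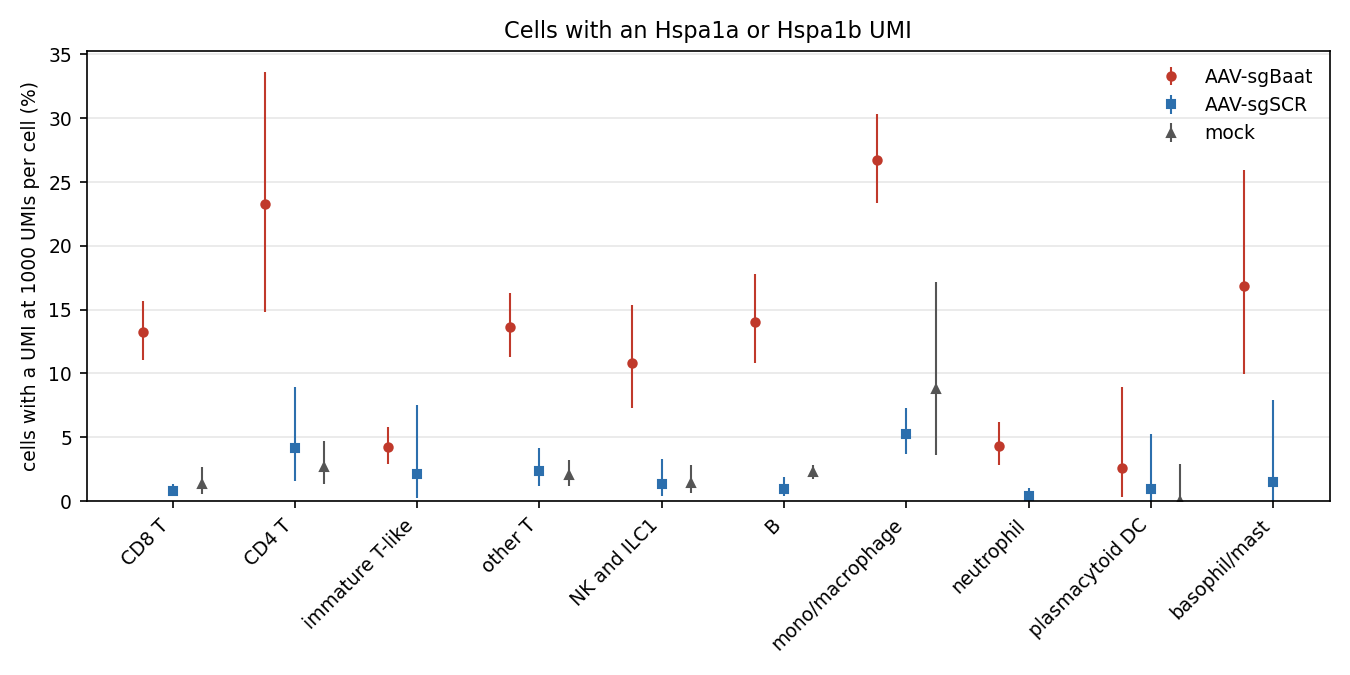
Share of cells with an Hspa1a or Hspa1b UMI at 1000 UMIs per cell, in percent, for each lineage and library (1 library per group; bars are exact 95% binomial intervals). AAV-sgBaat monocytes and macrophages stand at 26.7%, and AAV-sgBaat CD8 T cells at 13.2% against 0.80% in AAV-sgSCR.

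Lineages with at least 50 barcodes in both libraries were compared, which gave 10 lineages between AAV-sgBaat and AAV-sgSCR and 7 for each comparison with mock. For AAV-sgBaat over AAV-sgSCR, Hspa1a was at least 2-fold higher in 10 of 10 lineages. Its ratio ran from 4.48-fold in immature T-like cells to 42.1-fold in basophils and mast cells. The AAV-sgSCR levels behind these ends were low, at 5.76 CPM (2.49 to 11.4) and 3.62 (0.75 to 10.6). Hspa1b was at least 2-fold higher in 10 of 10 as well, from 8.95-fold in immature T-like cells, where AAV-sgSCR had 2.16 CPM (0.45 to 6.32). In AAV-sgSCR basophils and mast cells Hspa1b had 0 UMIs (interval up to 4.45 CPM). Its ratio there, 36.4-fold, was computed with 3 counts in place of 0 and is not a strict bound. Against mock, Hspa1a was at least 2-fold higher in 7 of 7 lineages (4.22-fold to 45.1-fold, the last in NK and ILC1 cells, from 6 mock UMIs). Hspa1b was so in 6 of 7, the exception being plasmacytoid dendritic cells at 1.59-fold. The share of all tested genes that passed 2-fold in the higher direction, for AAV-sgBaat over AAV-sgSCR, was 4.07% in CD8 T, 2.58% in CD4 T, 2.07% in immature T-like, 6.66% in other T, 1.66% in NK and ILC1 and 1.54% in B cells. It was 2.51% in monocytes and macrophages, 2.2% in neutrophils, 1.74% in plasmacytoid dendritic cells and 4.05% in basophils and mast cells. Against mock it was 8.7% in CD8 T, 5.91% in CD4 T, 10.9% in other T, 2.99% in NK and ILC1, 13.4% in B cells, 8.66% in monocytes and macrophages and 5.88% in plasmacytoid dendritic cells. These shares ran from 1.54% to 13.4%, and since the pair was chosen from these data, the counts of lineages add no evidence beside them. For AAV-sgSCR over mock, Hspa1a was at least 2-fold higher in 2 of 7 lineages and lower in 1. Hspa1b was at least 2-fold lower in 4 of 7 and higher in 0. Their sum was at least 2-fold lower in 2 lineages and higher in 0. The interval of the sum lay below equality in 4 lineages and above it in 0. Of all genes in those comparisons, 11.8% were higher and 4.63% lower in CD8 T, 4.76% and 6.25% in CD4 T, 6.04% and 4.48% in other T, and 5.89% and 8.89% in NK and ILC1 cells. In B cells 12.8% were higher and 8.89% lower, in monocytes and macrophages 8.64% and 5.61%, and in plasmacytoid dendritic cells 7.52% and 7.85%.

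In CD8 T cells, the killer T cells, the pair reached 161 CPM (147 to 175) in AAV-sgBaat, 14.8 (12.6 to 17.4) in AAV-sgSCR and 14.6 (10.96 to 18.9) in mock livers. Hspa1a was 78.0, 8.23 and 4.76 CPM in these libraries. Hspa1b was 82.8, 6.62 and 9.79 CPM. The AAV-sgBaat value lay far outside the counting intervals of the other libraries, whose intervals overlapped. The log2 ratio of the pair was 3.44 (3.18 to 3.70) for AAV-sgBaat over AAV-sgSCR, 3.47 (3.06 to 3.89) for AAV-sgBaat over mock and 0.03 (-0.42 to 0.50) for AAV-sgSCR over mock. Without thinning, the shares of CD8 T cells with a UMI of the pair were 25.3% (AAV-sgBaat), 3.69% (AAV-sgSCR) and 4.93% (mock).

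The pair was carried by a minority of CD8 T cells at a few UMIs each. In AAV-sgBaat, 639 of 855 cells had none, 111 had 1 UMI, 73 had 2 to 4, 27 had 5 to 9 and 5 had 10 or more, with a highest count of 16. In AAV-sgSCR, 1800 of 1869 cells had none and the highest cell had 29 UMIs. The top 1% of cells by pair UMIs held 18.6% (AAV-sgBaat), 65.6% (AAV-sgSCR) and 47.3% (mock) of them. A UMI of the pair was held by 216 of 855 in AAV-sgBaat, 69 of 1869 in AAV-sgSCR and 29 of 588 in mock.

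Several measures that differed between the libraries were set beside the CD8 difference. UMIs of 7 monocyte and macrophage markers made up 268, 90.9 and 19.8 CPM of AAV-sgBaat, AAV-sgSCR and mock CD8 T cells, with none of the 7 at 0 in any library and Lyz2 the most abundant in the 2 infected ones. UMIs of 5 neutrophil markers made up 302, 405 and 3.97 CPM, with Csf3r at 0 in mock. Among CD8 T cells with no UMI of either panel, the pair stood at 155 CPM (132 to 180; 273 cells) in AAV-sgBaat, 8.40 (3.63 to 16.6; 206 cells) in AAV-sgSCR and 15.5 (11.6 to 20.4; 514 cells) in mock livers. The AAV-sgSCR value in that subset rests on 8 UMIs, and the part of myeloid RNA in the result was not tested. UMIs of 4 hemoglobin genes made up 246, 647 and 24.9 CPM of the same cells, and their part in the result was not tested. At least 1 UMI of the immature panel, below its minimum of 3, was held by 20% (AAV-sgBaat), 1.87% (AAV-sgSCR) and 1.70% (mock) of CD8 T cells, and the ratio over all T cells without such cells was larger, as given further on. Alb, the main hepatocyte transcript, had 35, 160 and 15 UMIs over all AAV-sgBaat, AAV-sgSCR and mock T cells.

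The difference was also present at matched depth. AAV-sgBaat CD8 T cells had 267, 175, 139 and 139 CPM of the pair at 1000 to under 2000, 2000 to under 4000, 4000 to under 8000 and 8000 or more UMIs per cell. AAV-sgSCR CD8 T cells had 45.2 (from 4 UMIs), 9.64, 11.6 and 22.1 CPM in these depth classes. Mock cells had 33.1, 11.5 and 17.4 in the deeper 3 classes. In each class with a value the AAV-sgBaat library was highest. By mitochondrial share, AAV-sgBaat CD8 T cells had 149.6 CPM at 0 to 2%, 166 at 2 to 4%, 165 at 4 to 6% and 159 at 6 to 10%. AAV-sgSCR cells had 27.4, 14.5, 12.1 and 24.0 CPM in these classes, and mock cells at most 23.8.

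**Figure D2:**
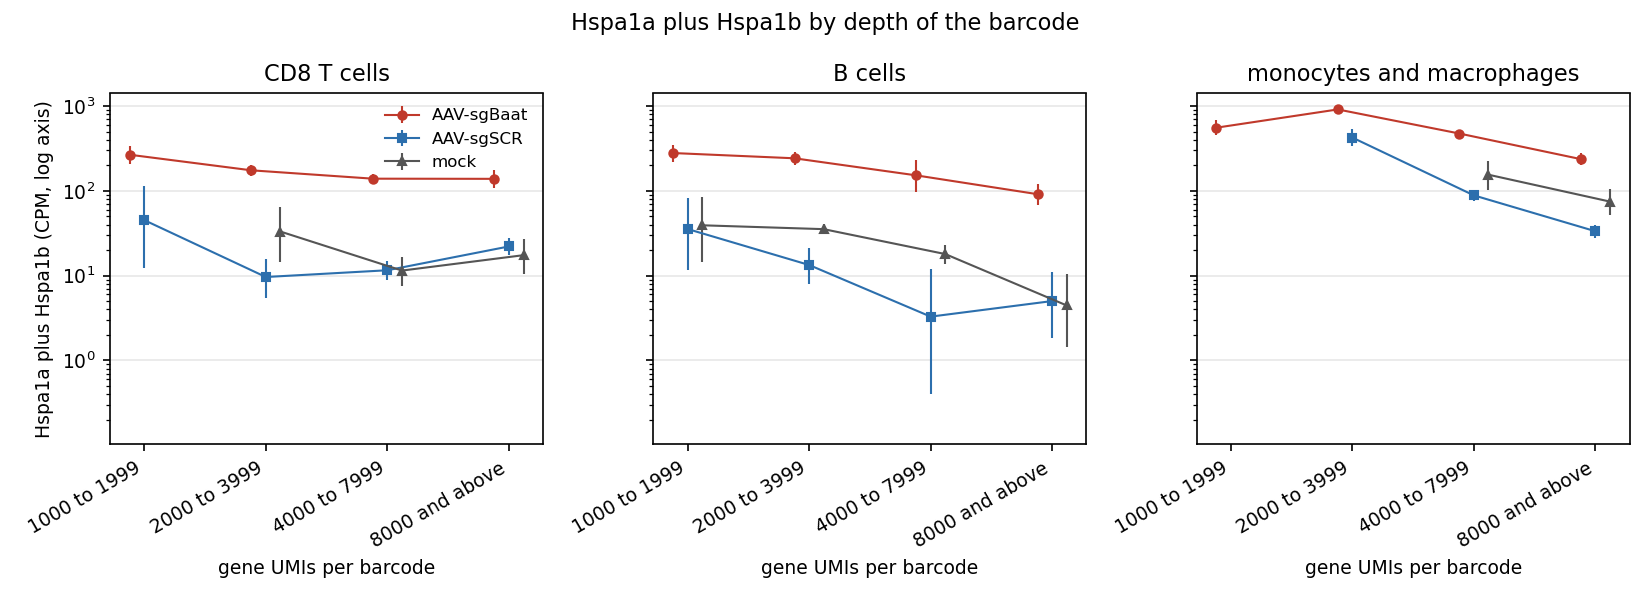
Summed level of Hspa1a and Hspa1b in CPM (log axis) by gene UMIs per barcode, in CD8 T cells, B cells, and monocytes and macrophages of each library, with exact 95% Poisson intervals. At matched depth the AAV-sgBaat points stand above the others, as for CD8 T cells of 2000 to under 4000 UMIs at 175, 9.64 and 33.1 CPM in AAV-sgBaat, AAV-sgSCR and mock.

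The antibody tags separated CD8 T cells by the CD90 allele they carry on the surface. In the AAV-sgBaat library, cells with more CD90.1 than CD90.2 tag had 97.0 CPM of the pair (82.1 to 114; 440 cells) and cells with more CD90.2 had 219 (197 to 242; 383 cells). In AAV-sgSCR the values were 11.6 (1120 cells) and 19.9 (724 cells). In mock, CD90.2 cells had 13.5 CPM (556 cells). The pair was thus higher in AAV-sgBaat in both kinds of cell. Hsp90aa1 and Hspd1 ran the other way within AAV-sgBaat, at 725 CPM in CD90.1 and 492 in CD90.2 cells for Hsp90aa1, and at 288 and 177 for Hspd1.

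Among lineages with at least 50 barcodes, monocytes and macrophages held the highest level of the pair in all 3 libraries, though in AAV-sgSCR conventional dendritic cells (51.6 CPM) overlapped them. Hspa1a was 327 CPM in AAV-sgBaat, 50.4 in AAV-sgSCR and 77.4 in mock monocytes and macrophages. Hspa1b was 182, 15.1 and 35.6 CPM. The sum was 509 (484 to 535), 65.4 (59.0 to 72.4) and 113 (88.6 to 142), so all 3 libraries lay apart and AAV-sgSCR was lowest. At 1000 UMIs per cell 26.7%, 5.30% and 8.75% of these cells had a UMI of the pair. In AAV-sgBaat, 7.11% of them held 10 or more UMIs, against 1.06% in AAV-sgSCR and 2.50% in mock. Within AAV-sgBaat, cells with at least 10 UMIs of the complement genes C1qa, C1qb and C1qc, marks of resident macrophages, had 448 CPM of the pair (116 cells) and those with fewer had 523 (531 cells).

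B cells, which make antibodies, had the largest ratio of the pair between the infected libraries among lymphocytes, with an interval that overlapped that of NK and ILC1 cells (3.39, 2.84 to 3.98). Hspa1a was 99.4 CPM in AAV-sgBaat, 3.95 in AAV-sgSCR and 10.8 in mock B cells. Hspa1b was 83.2, 5.46 and 16.3 CPM. The log2 ratio of the pair was 4.28 (3.74 to 4.87) for AAV-sgBaat over AAV-sgSCR, 2.75 (2.51 to 3.00) for AAV-sgBaat over mock and -1.52 (-2.11 to -0.99) for AAV-sgSCR over mock. Here the mock level therefore lay between those of the infected libraries. B cells with no myeloid UMI had 188 CPM of the pair in AAV-sgBaat, 19.2 in AAV-sgSCR and 28.1 in mock, so the AAV-sgSCR and mock intervals overlapped in that subset.

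NK and ILC1 cells, innate killers, had 212 CPM of the pair in AAV-sgBaat, 20.3 in AAV-sgSCR and 12.2 in mock livers. In NK and ILC1 cells with no myeloid UMI the values were 186, 65.1 (31.2 to 120; 34 cells) and 12.2 CPM, with 10 UMIs behind the AAV-sgSCR value. CD4 T cells, the helper cells, had 299, 43.4 and 27.6 CPM from 86, 143 and 415 cells. Other T cells, with UMIs of both or of neither coreceptor and fewer than 3 immature marker UMIs, had 225, 19.3 and 34.1 CPM. Neutrophils had 71.0 CPM in AAV-sgBaat against 5.36 in AAV-sgSCR. Plasmacytoid dendritic cells, makers of type I interferon, had 65.8, 5.21 and 18.8 CPM from 78, 103 and 124 cells. Over all T cells together, immature ones included, the pair had 102 CPM (96.4 to 107) in AAV-sgBaat, 16.3 (14.3 to 18.4) in AAV-sgSCR and 25.7 (22.8 to 29.0) in mock livers. The log2 ratio was 2.64 (2.45 to 2.84) for AAV-sgBaat over AAV-sgSCR, and 3.60 once cells with an immature marker UMI were left out. It was 1.98 (1.79 to 2.17) for AAV-sgBaat over mock, and 2.98 without those cells. For AAV-sgSCR over mock it was -0.66 (-0.92 to -0.41), and 0.05 once mixed barcodes were counted as T cells. Immature T-like cells had the lowest AAV-sgBaat level, 45.2 CPM (40.8 to 49.8), against 7.92 (3.96 to 14.2) in AAV-sgSCR. In AAV-sgBaat the order was monocytes and macrophages, apart from a chain of overlapping neighbours that ran over CD4 T cells, basophils and mast cells, other T, NK, B and CD8 T cells. Neutrophils, plasmacytoid dendritic and immature T-like cells lay apart below these.

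The balance within the pair, as the reads were assigned, differed between lineages and between libraries. Reads can be split wrongly between these genes, and the part of that in the balance was not tested. Hspa1a made up 64.2% (61.8 to 66.6) of the pair's UMIs in AAV-sgBaat monocytes and macrophages and 48.5% (44.2 to 52.8) in AAV-sgBaat CD8 T cells. In AAV-sgSCR the shares were 77.0% (72.4 to 81.1) and 55.4% (47.3 to 63.3). In mock they were 68.5% (56.6 to 78.9) in monocytes and macrophages and 32.7% (20.7 to 46.7) in CD8 T cells. All mock T cells together had 36.5% (30.8 to 42.4). Within each library monocytes and macrophages thus had the larger Hspa1a share, and the intervals did not overlap. No lineage here is known to lack these genes, so no share of background cells could be set beside these values.

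Hsph1 (ENSMUSG00000029657, chr5:149616843-149636498) and Dnajb1 (ENSMUSG00000005483, chr8:83608175-83612653), the partners of Hsp70, followed another pattern, in which AAV-sgSCR was the low library and AAV-sgBaat lay between it and mock in CD8 T and B cells. In CD8 T cells Hsph1 was 54.1 CPM in AAV-sgBaat, 25.1 in AAV-sgSCR and 71.5 in mock livers. Dnajb1 was 73.2, 43.4 and 89.4 CPM in these cells. In B cells Hsph1 was 38.1, 17.0 and 61.2 CPM and Dnajb1 71.9, 35.2 and 84.5 CPM. Mock thus held the highest value of both genes in both lineages. The log2 ratio of AAV-sgBaat over mock in CD8 T cells was -0.40 (-0.68 to -0.13) for Hsph1 and -0.29 (-0.53 to -0.05) for Dnajb1. In B cells it was -0.68 (-1.11 to -0.28) for Hsph1 and -0.23 (-0.54 to 0.06) for Dnajb1, so only the last of these intervals reached equality.

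Across lineages, Hsph1 was at least 2-fold lower in AAV-sgSCR than in mock in 6 of 7, and its counting interval lay below equality in 7 of 7. Dnajb1 was at least 2-fold lower in 3 of 7, with the interval below equality in 6. Of all genes tested, 4.48% to 8.89% were at least 2-fold lower there, depending on the lineage. For AAV-sgBaat over mock, log2 ratios ran from -0.68 to -0.32 for Hsph1, with the interval below equality in 4 of 7 lineages, and from -0.29 to 0.29 for Dnajb1, with the interval below equality in 2. For AAV-sgBaat over AAV-sgSCR, Hsph1 passed 2-fold in 4 of 10 lineages and Dnajb1 in 3 of 10, where 1.54% to 6.66% of all genes were higher. Both genes were chosen from these data, so these counts add no evidence. Where CD8 T cells held no myeloid UMI, Hsph1 kept that order at 59.4, 22.1 and 70.0 CPM in AAV-sgBaat, AAV-sgSCR and mock. Dnajb1 in those cells was 68.6, 54.6 and 86.7 CPM, with overlapping AAV-sgBaat and AAV-sgSCR intervals. In B cells with no myeloid UMI Hsph1 was 19.3, 13.7 and 62.2 CPM, and Dnajb1 70.1, 41.2 and 84.3. The AAV-sgBaat and AAV-sgSCR intervals overlapped for both genes there.

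**Figure D3:**
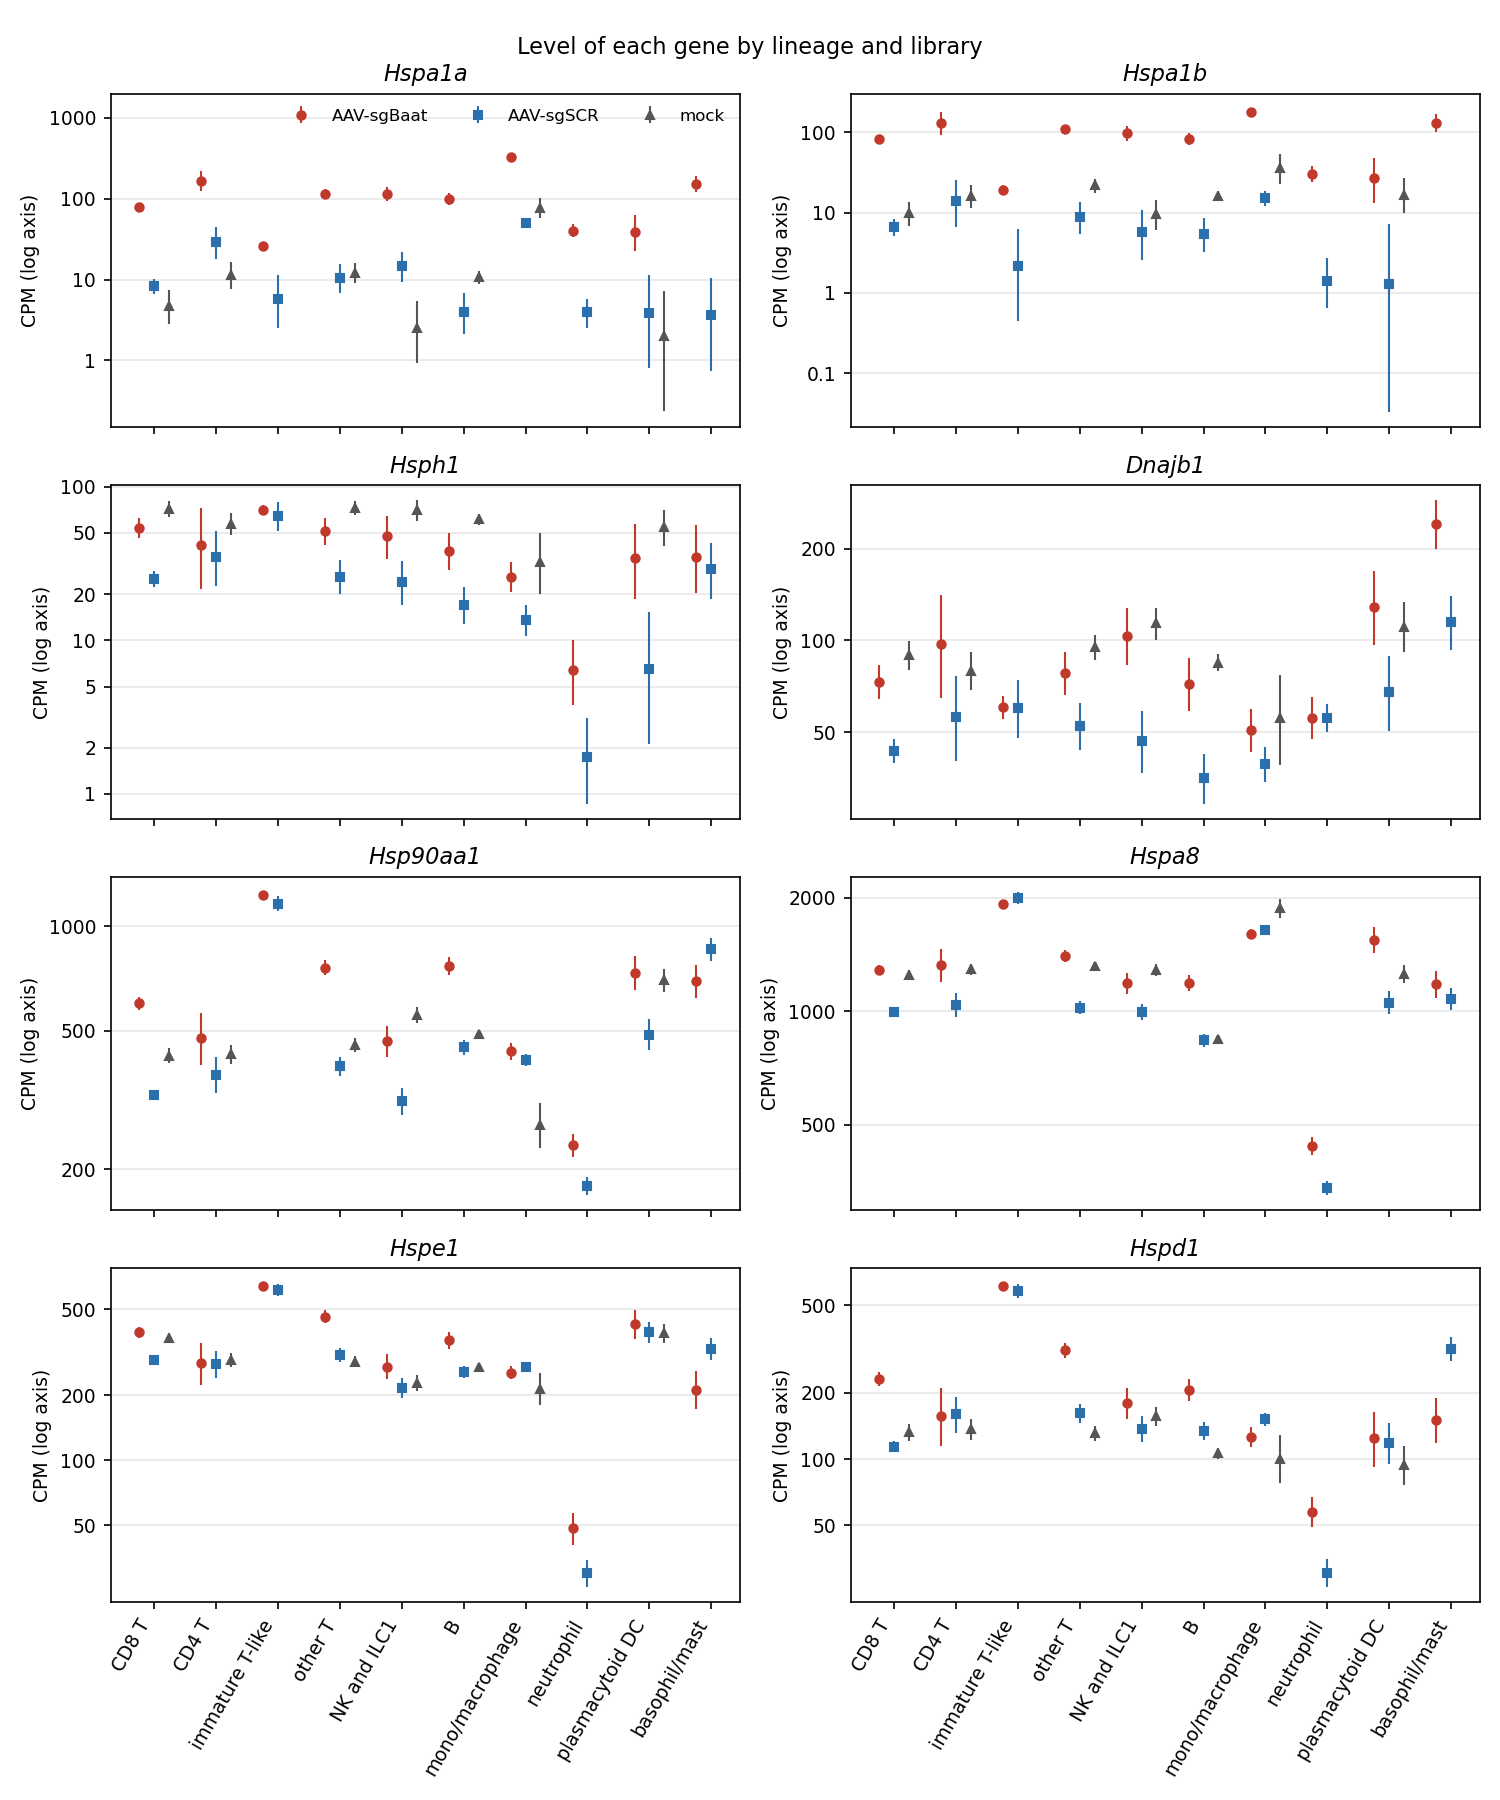
Level of each of the 8 genes in CPM (log axes, which differ between panels) by lineage and library, with exact 95% Poisson intervals; lineages with under 50 barcodes in a library have no point, and the AAV-sgSCR point of Hspa1b in basophils and mast cells, at 0 UMIs, is not drawn. Hspa1a and Hspa1b are higher in AAV-sgBaat, Hsph1 is lowest in AAV-sgSCR in CD8 T cells at 25.1 CPM, and Hspa8, Hspe1 and Hspd1 are lowest in neutrophils.

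Counts of members at least 2-fold apart, among genes with at least 20 UMIs over both libraries, depended on the lineage. Among CD8 T cells 4 of 8 members were at least 2-fold higher for AAV-sgBaat over AAV-sgSCR (Hspa1a, Hspa1b, Hsph1 and Hspd1), against 4.07% of all genes tested. In B cells 4 of 8 were, against 1.54%. In monocytes and macrophages 2 of 8 were, the pair itself, against 2.51%. In all T cells together 5 of 8 were, against 11.9%. The count was 2 without cells holding an immature marker UMI and 3 without cycling cells. The share of all genes was not computed for those smaller sets. Because the members were picked from these libraries, these shares describe the choice and add no evidence. For AAV-sgBaat over mock, 2 members were higher in CD8 T cells, against 8.7% of genes, and for AAV-sgSCR over mock 2 were lower, Hsph1 and Dnajb1, against 4.63%.

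**Figure D4:**
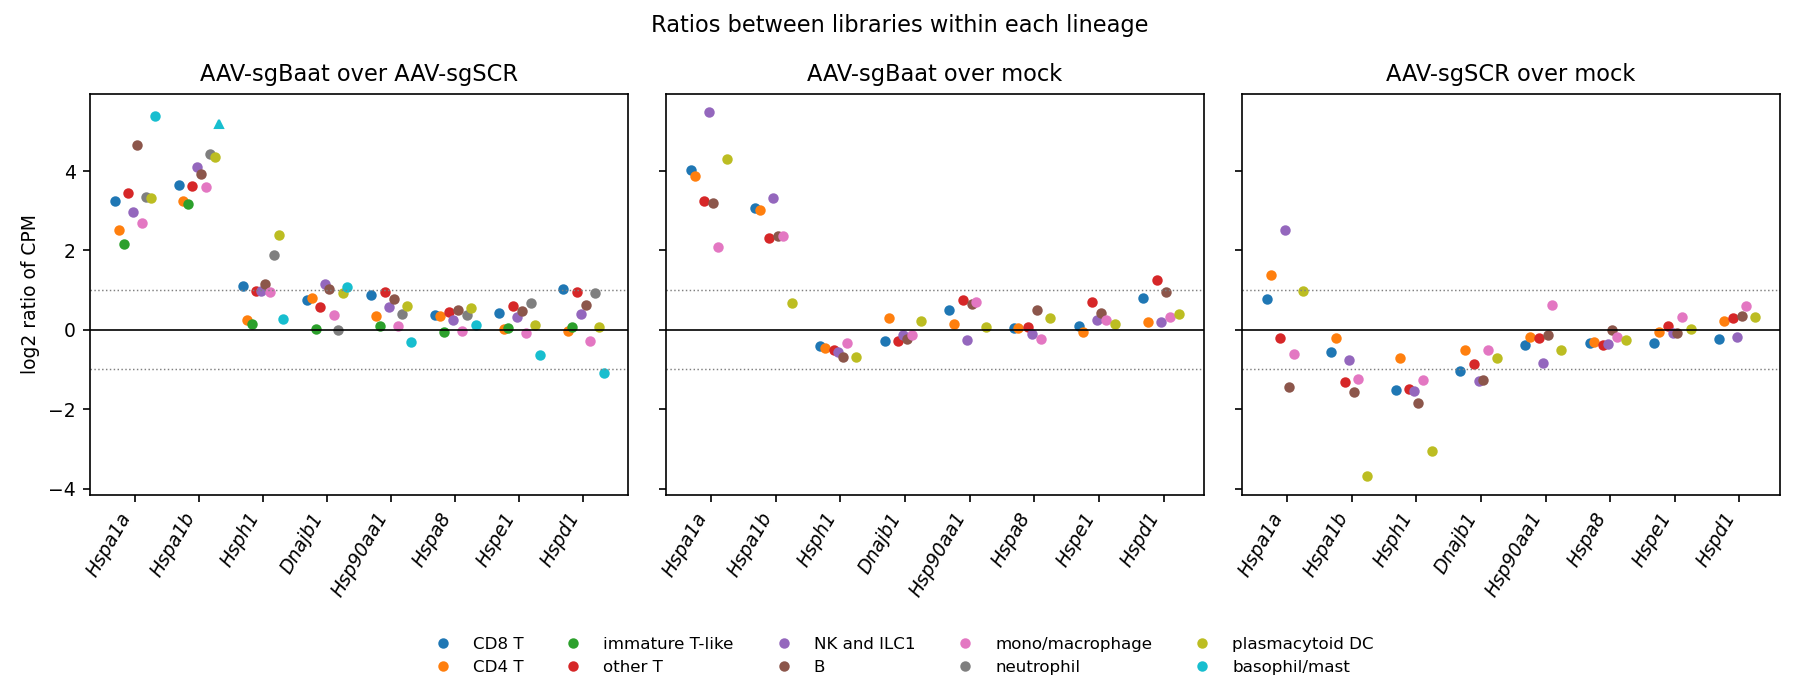
Log2 ratio of CPM between libraries for each gene, 1 point per lineage. Dotted lines mark 2-fold, and the triangle marks a ratio computed with 3 counts where AAV-sgSCR had 0 UMIs. Hspa1a and Hspa1b lie above 2-fold in all lineages of AAV-sgBaat over AAV-sgSCR, and Hsph1 lies below equality in all 7 lineages of AAV-sgSCR over mock.

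The other members were Hsp90aa1 (ENSMUSG00000021270, chr12:110691036-110696395), Hspa8 (ENSMUSG00000015656, chr9:40801276-40805202), Hspe1 (ENSMUSG00000073676, chr1:55088148-55091317) and Hspd1 (ENSMUSG00000025980, chr1:55077833-55088243). Within a lineage they differed less between AAV-sgBaat and AAV-sgSCR than they did between the lineages of either library. In mock, with 11 neutrophils and no immature T-like cells, Hspd1 ran only from 94.1 to 156 CPM over the lineages compared. In CD8 T cells Hsp90aa1 was 600.2 CPM in AAV-sgBaat, 326 in AAV-sgSCR and 424 in mock livers. Hspd1 was 231, 114 and 133 CPM. Hspa8 was 1288, 993 and 1248 CPM, and Hspe1 was 390.2, 291 and 368 CPM. AAV-sgBaat was thus highest for Hsp90aa1 and Hspd1 beyond counting error, while Hspa8 and Hspe1 set AAV-sgSCR below both others. The log2 ratio of AAV-sgBaat over mock was 0.50 for Hsp90aa1, 0.80 for Hspd1, 0.05 for Hspa8 and 0.09 for Hspe1. Over the 10 lineages, the log2 ratio of AAV-sgBaat over AAV-sgSCR ran from -0.30 to 0.95 for Hsp90aa1, from -0.06 to 0.55 for Hspa8, from -0.63 to 0.69 for Hspe1 and from -1.08 to 1.02 for Hspd1.

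Immature T-like cells carried the highest levels of these 4 genes and of Hsph1 in both infected libraries, although the AAV-sgSCR interval of Hsph1 overlapped that of CD4 T cells. The levels were nearly the same in AAV-sgBaat and AAV-sgSCR. Hsp90aa1 was 1234 CPM in AAV-sgBaat against 1164 in AAV-sgSCR immature cells. Hspd1 was 611 and 581 CPM, Hspe1 639.9 and 615, and Hspa8 1922 and 1997. Hsph1 was 70.4 and 64.1 CPM, and Dnajb1 60.3 and 59.8. The log2 ratios of these 6 genes lay between -0.06 and 0.14. In the same cells Hspa1a was 25.8 CPM in AAV-sgBaat against 5.76 in AAV-sgSCR. Of all 8 members, 2 were at least 2-fold higher here, the pair, against 2.07% of genes tested.

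Neutrophils lay at the other end. Hsp90aa1 was 235 CPM in AAV-sgBaat against 178 in AAV-sgSCR neutrophils, Hspa8 439 and 339.7, and Hspe1 48.3 and 30.0. Hsph1 was 6.39 and 1.73 CPM. Dnajb1 did not share this drop, at 55.7 and 55.5 CPM.

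Within T cells of all kinds pooled, Hsp90aa1 and Hspd1 were higher in cells with a cycling UMI, and the pair was not. In AAV-sgBaat T cells Hsp90aa1 was 1213 CPM in cycling and 561 in other cells, and Hspd1 585 and 231. Immature T-like cells, highest in both genes, were 809 of these 2511 T cells. A cycling UMI was held by 78.1% of them, against 30.9% of AAV-sgBaat CD8 T cells. They were also deeper, at a median of 9490 UMIs against 3447. The part of immature cells and of depth in these gaps was not tested. In AAV-sgSCR T cells Hsp90aa1 was 643 and 299.99, and Hspd1 270.3 and 114. In mock T cells the gap was small, at 469.6 and 434 for Hsp90aa1 and 137 and 132 for Hspd1, with 154 cycling cells. The pair ran the other way in AAV-sgBaat T cells, at 61.5 CPM in cycling and 188 in other cells. In AAV-sgBaat CD8 T cells, from which cells classed as immature are set apart, it was nearly equal at 160.2 and 161 CPM.

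**Figure D5:**
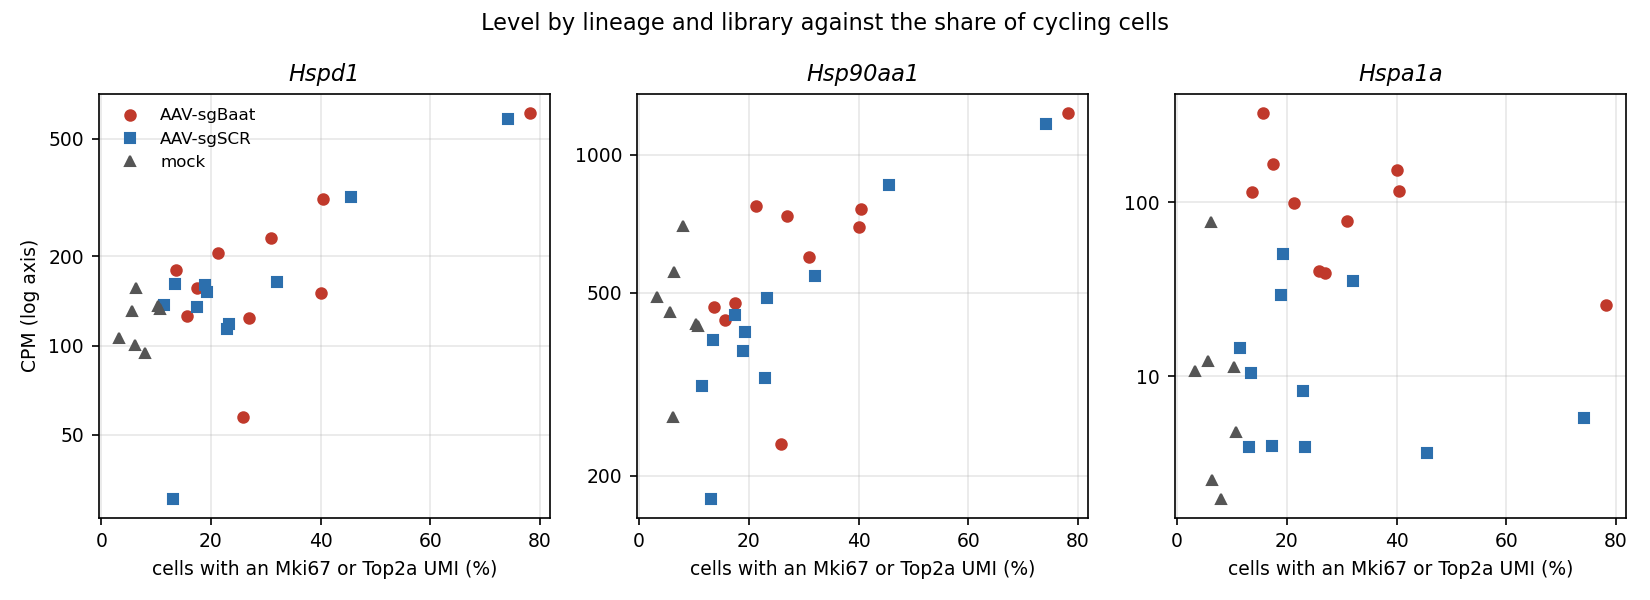
Level of Hspd1, Hsp90aa1 and Hspa1a in CPM (log axes) against the percent of cells with an Mki67 or Top2a UMI, 1 point per lineage and library. Hspd1 and Hsp90aa1 run upward to the immature T-like cells at 78.1% (AAV-sgBaat) and 74.2% (AAV-sgSCR), while Hspa1a does not. Hspa1a is higher in AAV-sgBaat within each lineage compared, but the libraries overlap across lineages.

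Over 28 sums of lineage and library, the correlation of log2 CPM with the percent of cycling cells was 0.74 for Hspd1 and 0.68 for Hsp90aa1. It was 0.39 for Hspe1, 0.33 for Hspa8, and between -0.10 and 0.11 for the other 4 genes. Among the members, Hspa1a and Hspa1b correlated at 0.87, Hsp90aa1 and Hspd1 at 0.84, Hspa8 and Hspe1 at 0.84, and Hsph1 and Dnajb1 at 0.45. Hspa1a correlated with the members other than Hspa1b at 0.04 to 0.30. The sums share libraries and depth, so these values are descriptions. By the same measure the genes nearest to the pair among all genes with enough UMIs were C1qc, C1qb, Pcbd2, Dab2 and C1qa, at 0.63 to 0.66, of which the C1q genes are part of the panel that defines monocytes and macrophages. The genes nearest to the sum of the 8 members were Rpf2, Noc2l, Uqcc2, Rpl7a and Ptges3, at 0.91 to 0.93.

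Basophils and mast cells, granular cells of allergic responses, numbered 95 in AAV-sgBaat and 68 in AAV-sgSCR. The pair stood at 284 CPM (239 to 336) in the AAV-sgBaat library, against 3.62 (0.75 to 10.6) in AAV-sgSCR, where the AAV-sgSCR value rests on 3 UMIs, for a log2 ratio of 6.30 (4.72 to 8.59). Dnajb1 was highest of any lineage in both libraries, at 241 and 115 CPM. Hspd1 was lower in AAV-sgBaat at 150.4 against 317 CPM, and Hspe1 at 212 against 328. Of the members, 3 were at least 2-fold higher, against 4.05% of genes, and 1 lower, against 9.69%.

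Cells of 1 lineage with and without a UMI of the pair at 1000 UMIs were then compared for the other members. In AAV-sgBaat CD8 T cells, 113 cells with the pair had 103 CPM of Hsph1 and 742 without had 47.1, a log2 ratio of 1.14 (0.61 to 1.64). Dnajb1 was 101 and 69.2 CPM (0.55, 0.03 to 1.03). Hsp90aa1 was 594 and 601 CPM, and Hspa8 1268 and 1291. In this lineage and library the Hsp70 partner genes were thus higher in the cells that held the pair, and Hsp90aa1 and Hspa8 were near equal. Hspd1 was lower in those cells, at 180.5 and 238 CPM (-0.40, -0.77 to -0.06). In mock B cells, 66 cells with the pair had 216 CPM of Dnajb1 and 2859 without had 81.7, a log2 ratio of 1.40 (0.97 to 1.81). There Hsp90aa1 was also higher in cells with the pair (0.53, 0.29 to 0.75), and so was Hspa8 (0.28, 0.09 to 0.47). In AAV-sgBaat NK and ILC1 cells, 27 with the pair and 222 without, Hspa8 was higher (0.51, 0.26 to 0.74) and so was Hspe1 (0.91, 0.43 to 1.37). Differences between these lineages and libraries were not tested. Cells of 1 library are not replicates, and these ratios describe the libraries named.

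Other genes of protein folding were taken from lists. Levels of genes named in this and the next paragraph are pooled over all T cells of a library. Immature T-like cells were 809 of 2511 such cells in AAV-sgBaat and 93 of 2573 in AAV-sgSCR, and mock had none. The part of that mix in these levels was not tested. In all T cells of AAV-sgBaat over AAV-sgSCR, 5 of 21 other heat shock and co-chaperone genes with enough UMIs were at least 2-fold higher and 1 lower (11.9% and 14.2% of all genes), with a median log2 ratio of 0.46 against -0.02 for all genes. Among CD8 T cells 0 of the list passed 2-fold in either direction, with a median of 0.40, where 4.07% of all genes were higher and 4.87% lower. Within immature T-like cells the median of the list was 0.06. Among the higher ones in T cells were Bag3, which releases clients from Hsp70, at 12.9 CPM in AAV-sgBaat against 4.12 in AAV-sgSCR, and Stip1, which links Hsp70 to Hsp90, at 128 and 56.0. Fkbp4, an Hsp90 co-chaperone, was 214 and 90.5 CPM. Hsp90ab1, the constitutive Hsp90, was 2877 and 1592 CPM, below 2-fold. Hsf1, the factor itself, was 25.4 CPM in AAV-sgBaat, 20.4 in AAV-sgSCR and 31.6 in mock T cells. Of 4 genes for heat shock factors and their binding protein with enough UMIs, 0 passed 2-fold.

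The chaperonin TRiC, which folds actin and tubulin, had 2 of 8 subunits at least 2-fold higher and 0 lower for AAV-sgBaat over AAV-sgSCR T cells, where 11.9% of all genes were higher and 14.2% lower (Cct8 at 431 against 196 CPM and Cct6a at 304 against 147). Mitochondrial chaperones and proteases had 2 of 8 (Lonp1 at 32.1 against 15.3 CPM and Trap1 at 50.4 against 25.0). Among CD8 T cells 0 of 8 of both lists passed 2-fold, against 4.07% of all genes higher and 4.87% lower, with medians of 0.30 and 0.39. Within immature T-like cells the medians were 0.02 and 0.12. Of 16 chaperones and stress genes of the endoplasmic reticulum, 0 passed 2-fold in T cells, and Hspa5, the Hsp70 of that compartment, was 295 CPM in AAV-sgBaat, 267 in AAV-sgSCR and 487 in mock. Immediate early genes, which cells switch on soon after a stimulus, had 3 of 14 higher and 2 lower (11.9% and 14.2% of all genes), with a median of -0.33. Atf3 was 18.8 CPM in AAV-sgBaat against 7.44 in AAV-sgSCR T cells, while Fosb was 142 and 379.8. Among CD8 T cells 3 of the 14 were higher and 0 lower (4.07% and 4.87% of all genes), with a median of 0.22. Against mock the genes were mostly lower: in AAV-sgBaat T cells 0 were higher and 7 lower (19.3% and 15.9% of all genes), with a median of -1.04, and in AAV-sgSCR T cells 0 were higher and 2 lower (11.4% and 4.88%), with a median of -0.76. In CD8 T cells of AAV-sgBaat over mock 1 was higher and 0 lower (8.7% and 4.5%), and for AAV-sgSCR over mock 0 were higher and 3 lower (11.8% and 4.63%). For AAV-sgBaat over mock in B cells 0 of 13 were higher and 7 lower (13.4% and 12%). In B cells of AAV-sgSCR over mock 1 of 14 was higher and 8 lower (12.8% and 8.89%). The part of cell handling in these levels was not tested.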

How the data were processed

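The 3 mRNA libraries were deposited as matrices of raw counts, UMIs per gene and cell barcode, together with 3 antibody tags (Thy1.1, Thy1.2 and F4.80; the labels of the antibody libraries name Hashtag 2). Per the file headers the authors made these counts with Cell Ranger 6.0.1, and the submitters' processing notes name mm10. The libraries used a 3′ kit (v2, per the labels' protocols). The 3 antibody samples have no files of their own and were not analysed apart. The 8 members and all lists were chosen with earlier results of these data known. Named genes are the members, the genes nearest to them by correlation, and genes of fixed lists.

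UMIs were summed per library and lineage with Python 3.11.15, numpy 2.4.6, scipy 1.17.1 and pandas 2.3.3. Levels carry exact Poisson intervals, ratios exact conditional binomial intervals and shares exact Clopper-Pearson intervals. Marker minimums (2 UMIs for T and NK, 3 for B, conventional dendritic and immature T-like cells, 5 for plasmacytoid dendritic cells, basophils and mast cells, 10 for monocytes and macrophages, 20 for neutrophils) were set after seeing the data. For shares, each cell was thinned at random to 1000 UMIs, which lost no barcode. Mixed-lineage barcodes were kept apart as possible doublets, and a Scrublet ranking (scanpy 1.11.5) was an alternative. Scripts were tested on simulated data. Correlations used log2(CPM + 1). Promoters came from RefSeq (GRCm38.p6). In all, 12 alternatives, such as stricter filters and leaving out cycling cells, were run.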

Additional observations from a re-analysis of the deposited data

Results flagged for a closer look

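Some members ran against their usual direction in 1 or 2 lineages, and these differences between lineages were not tested. The log2 ratio of AAV-sgBaat over AAV-sgSCR for Hsp90aa1 was -0.30 in basophils and mast cells, while its counting interval lay above equality in 8 other lineages. For Hspe1 it was -0.63 in basophils and mast cells, against 5 other lineages above equality. For Hspd1 it was -0.27 in monocytes and macrophages and -1.08 in basophils and mast cells, against 5 lineages above equality. Basophils and mast cells rest on 95 AAV-sgBaat and 68 AAV-sgSCR barcodes.

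Barcodes that failed the filter were in no comparison, and the pair was high in them in 1 library. Hspa1a plus Hspa1b stood at 252 CPM (231 to 275) in failing AAV-sgBaat barcodes, 34.3 (25.6 to 45.1) in AAV-sgSCR and 17.3 (9.24 to 29.7) in mock.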

How the results depend on the processing

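The lead in the pair, Hspa1a plus Hspa1b, of AAV-sgBaat over AAV-sgSCR and mock T cells kept its direction under all 12 alternatives, and every lineage compared was at least 2-fold higher for AAV-sgBaat over AAV-sgSCR, as 8 of 8, 10 of 10 or 11 of 11 depending on how many held 50 barcodes. For AAV-sgBaat over AAV-sgSCR the log2 ratio was 2.43 with at least 1000 genes and 2000 UMIs per barcode, 2.31 with mixed-lineage barcodes counted in each lineage, 3.24 as a mean of per-cell CPM and 3.49 without the top 1% of cells. It was 3.60 without cells holding an immature marker UMI, 3.58 without cycling cells and 3.29 at 2000 UMIs per cell. For AAV-sgBaat over mock it was 1.77, 2.35, 2.70, 2.43, 2.98, 2.81 and 2.49 under the same settings in that order, and 2.22 with marker minimums doubled. AAV-sgSCR over mock was -1.07 without the top 1% of cells and turned to 0.047 with mixed-lineage barcodes counted. The cause was not tested. In T cells 2 members passed 2-fold without immature cells and 3 without cycling cells, against 5 with them, and the cause was not tested. With all T cells 11.9% of all genes passed, and that share was not computed for the smaller sets. The share difference, 9.47 points, was 7.74 under the stricter filter, 10.9 with mixed barcodes, 13.7 without immature cells, 12.9 without cycling cells and 12.2 at 2000 UMIs. The mean of per-cell CPM and CPM without the member genes define no share. No paired analysis was possible because each group had 1 library. Lineages under 50 barcodes and levels from 3 or fewer UMIs set the limits of depth.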

Other observations

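Conventional dendritic cells, which present antigen to T cells, were too few for a comparison but had high levels of the pair. Hspa1a plus Hspa1b stood at 538 CPM in 44 AAV-sgBaat, 51.6 in 153 AAV-sgSCR and 182 in 26 mock cells. Hspa1a made up 71.8% of the pair in the AAV-sgBaat cells.

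Barcodes that carried T cell and myeloid panels together had 199 CPM of the pair in AAV-sgBaat (1607 barcodes), 48.5 in AAV-sgSCR (950 barcodes) and 100.1 in mock (41 barcodes). Barcodes with T and B cell panels together had 171, 25.7 and 22.5 CPM. Barcodes with no panel had 324 CPM in AAV-sgBaat, 25.3 in AAV-sgSCR and 123 in mock.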
